A study of Mus musculus with 27 samples.

Results

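The 10 genes described here encode transcription factors and a coactivator of the programme that turns mesenchymal precursors into fat cells: Pparg, Cebpa, Cebpb, Cebpd, Zfp423, Ebf1, Ebf2, Klf15, Srebf1 and Ppargc1a. They were taken by name from the 37991 genes quantified in 27 RNA sequencing profiles of mouse osteoblast cultures, and each name matched 1 Ensembl gene. The cells came from the calvariae (skull roof) of neonatal C57BL/6J-Col3.6 CFP mice aged 5 to 9 days. In this strain a cyan fluorescent protein is driven by a fragment of the collagen type I promoter. Cells positive for the protein were sorted and then grown with fetal bovine serum, ascorbic acid and β-glycerol phosphate, without a separate adipogenic mixture in the stated medium. RNA was taken on 9 days of differentiation, every other day from day 2 to day 18, and the groups differed only in that day. There was no untreated or unsorted group, and the complementary DNA was amplified before sequencing.

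Each day had 3 profiles, which the labels number as replicates and the paper describes as triplicate samples. Their deposited names, however, carry 1 barcode per day and differ in the sequencing lane. Over the members' counts the 3 lanes agreed within sampling noise (chi-square test, 1.17 per degree of freedom on 164 degrees of freedom, p = 0.0687, days with at least 30 counts). The profiles, called lanes here, were therefore summed and counted as 1 sample per day, against the stated design. The edgeR p-values below test a trend in day against the scatter of these 9 libraries around it, not against a spread between cultures or animals. The summed libraries held 22470195 to 62009157 counts, the lowest on day 10 and the highest on day 12. Levels are given as TPM (RSEM's measure of transcript abundance per unit of transcript length) after scaling to a common upper quartile, as the mean of 3 lanes. An SD beside a level is the SD of those 3 lanes and covers technical error only.

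In textbook accounts of fat cell differentiation, hormonal stimulation first raises C/EBPβ and C/EBPδ, leucine zipper proteins that switch on the genes of PPARγ and C/EBPα. These last factors then maintain each other and activate the genes of lipid uptake, synthesis and storage. Zfp423, Ebf1 and Ebf2 mark or specify committed precursors, Srebf1 drives fatty acid synthesis genes, Klf15 belongs to the later stages, and Ppargc1a is the coactivator known for mitochondrial and thermogenic genes. Bone-forming and fat-forming cells of the skeleton descend from related precursors, and several of these factors are also expressed outside fat.

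Of the 10 members, 7 rose along a straight line in day, 2 fell and 1 did neither (edgeR quasi-likelihood test, Benjamini-Hochberg adjusted p under 0.05). All 10 passed the filter on low counts. Among all 15659 genes tested, 28.3% rose and 26.1% fell by the same criterion, with a median log2 change of 0.05 from day 2 to day 18. The members' median log2 change was 2.96. A curve in day, a natural spline with 3 degrees of freedom, called 9 of the 10 members, Srebf1 being the exception, against 57.5% of 16256 genes. At a level of at least 1 TPM, 8 members were expressed on day 2 and all 10 on day 18. In whole cultures, fewer cells of a type and less RNA per cell cannot be told apart, so a level below is a level of the culture.

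**Figure D1:**
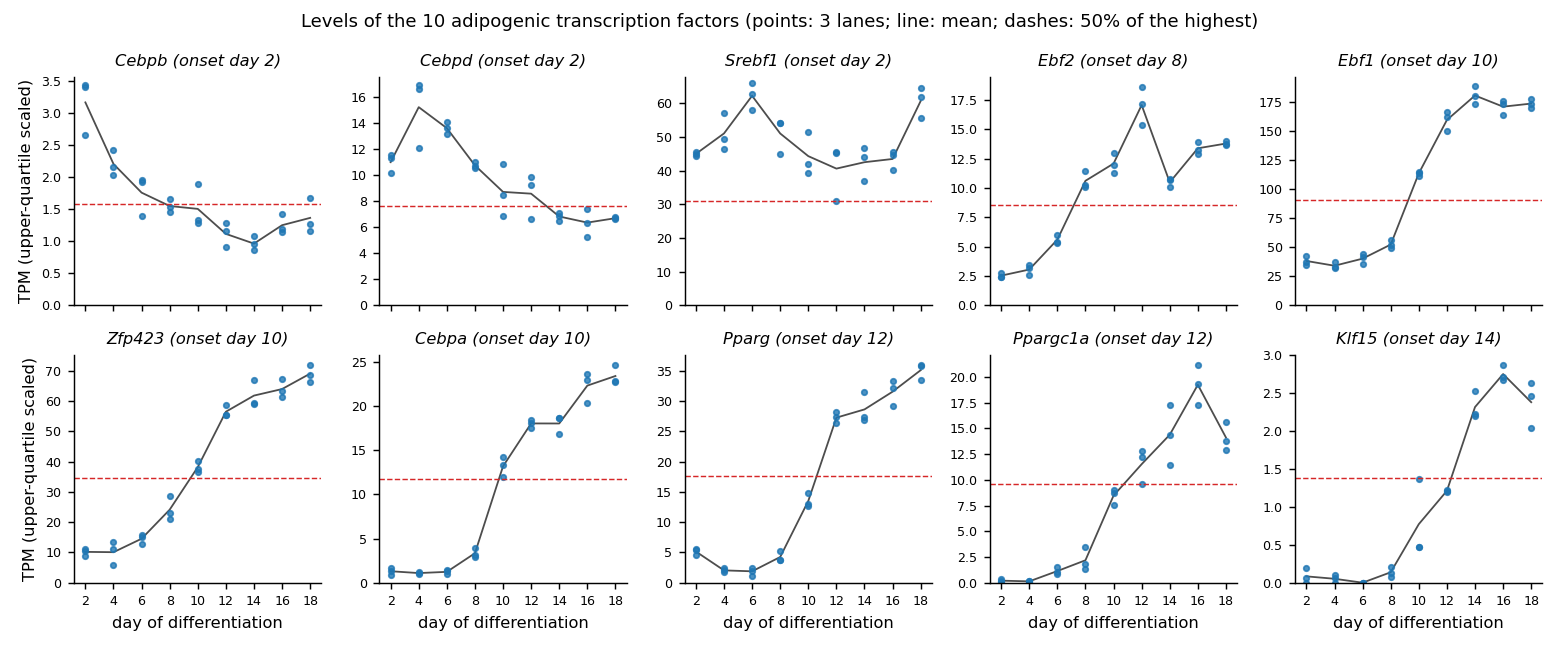
Level of each member in TPM (upper-quartile scaled, vertical axis, linear from 0) against day of differentiation, with 3 lanes as points, their mean as a line and 50% of the highest mean as a dashed line. Cebpb and Cebpd start high and decline, the mean of Srebf1 stays above its dashed line throughout, and the other 7 cross theirs between day 6 and day 14.

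The order of onset was taken as the first day on which a member reached at least 50% of its own highest level. Cebpb, Cebpd and Srebf1 were already there on day 2. That is the first sampled day and these genes did not rise along the line, so their place marks no onset within the series. Ebf2 followed on day 8, then Ebf1, Zfp423 and Cebpa on day 10, Pparg and Ppargc1a on day 12, and Klf15 on day 14. Each of the 3 lanes alone gave the same day for 8 members. For Ppargc1a and Klf15 the lanes gave days from 10 to 14, so the order of these members relative to Cebpa and Pparg is not resolved by the lanes. When the crossing was interpolated between sampled days, the order was Ebf2 at 7.17 days, Ebf1 at 9.24, Zfp423 at 9.48, Cebpa at 9.70, Pparg at 10.6, Ppargc1a at 10.8 and Klf15 at 12.3. Sampling every other day does not separate neighbours that fall within the same interval. The order also depended on the 50% cut. At a lower alternative cut, Cebpa, Pparg, Ppargc1a and Klf15 all fell on day 10, after Ebf2 on day 6. At a higher alternative cut, Ebf2, Ebf1, Zfp423, Cebpa and Pparg all fell on day 12, Klf15 on day 14 and Ppargc1a on day 16.

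**Figure D2:**
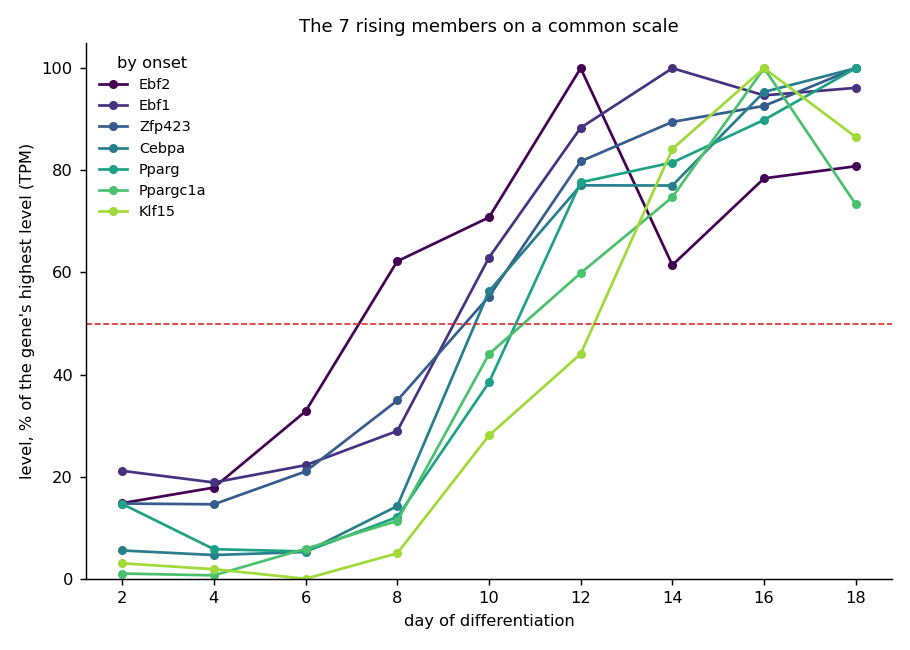
Level of the 7 rising members as a percentage of each gene's highest level in TPM (vertical axis) against day of differentiation, with the 50% line dashed. Ebf2 crosses first, after day 6, and Klf15 last, after day 12, while Pparg stands at 38.5% on day 10 when Cebpa has reached 56.3%.

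Cebpb, which encodes the early-acting C/EBPβ, was highest on day 2 and declined. Cebpb stood at 3.17, 2.21, 1.76, 1.55 and 1.51 TPM on days 2, 4, 6, 8 and 10. Days 12, 14, 16 and 18 gave 1.12, 0.964, 1.25 and 1.37 TPM. Every lane of day 2 lay above every lane of the later days. The summed counts were low, 113 on day 2 and 45 on day 18, a ratio of 0.388 after scaling (95% interval 0.268 to 0.552, counting error only). Along the line the log2 change was -1.36 ± 0.38 (SE, edgeR adjusted p = 0.0109). This call rested on the first library, since without day 2 the log2 change was -0.98 (edgeR adjusted p = 0.0998). The gene has 1 transcript in the files and lies on the plus strand at chr2:167514415-167515918 (NCBIM37).

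Cebpd, encoding the other early C/EBP protein, C/EBPδ, was higher than Cebpb on each of the 9 days and peaked on day 4. On days 2, 4, 6, 8 and 10, Cebpd measured 11.0, 15.2, 13.6, 10.7 and 8.70 TPM. Levels of 8.56, 6.81, 6.34 and 6.68 TPM followed on days 12, 14, 16 and 18. The lanes of days 2 to 8 all lay above those of days 14 to 18. The fitted log2 change was -1.32 ± 0.23 (SE, edgeR adjusted p = 0.00077). Between days 2 and 4 the scaled counts differed by a ratio of 1.30 (interval 1.11 to 1.52, counting error only), and on day 18 they stood at 0.548 of day 2 (interval 0.449 to 0.666). The gene lies on the plus strand at chr16:15887379-15888559 (NCBIM37).

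Cebpa, encoding C/EBPα, a factor of the later phase that also slows cell division, was low until day 6 and then rose. Levels of Cebpa were 1.30, 1.09, 1.23, 3.33 and 13.2 TPM on days 2, 4, 6, 8 and 10. It reached 18.0 TPM on days 12 and 14, then 22.3 and 23.4 TPM. No lane of days 2 to 6 overlapped any lane of the later days. The largest step between neighbouring days was from day 8 to day 10, where scaled counts rose 4.11-fold (interval 3.43 to 4.95, counting error only). Between days 12 and 14 the interval included no change (ratio 1.05, 0.969 to 1.13). In the fit, Cebpa changed by 5.15 ± 0.78 on the log2 scale (SE, edgeR adjusted p = 0.000383). The gene has 1 transcript in the files, at chr7:35904312-35906945 on the plus strand (NCBIM37).

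As levels per length, Cebpa passed Cebpb between day 6 (ratio 0.697, below in all 3 lanes) and day 8 (ratio 2.15, above in all 3 lanes), and passed Cebpd between day 8 and day 10. Cebpd made up 71.0% ± 1.40 (SD of 3 lanes) of the summed C/EBP TPM on day 2 and 82.0% ± 2.91 on day 6. Cebpa made up 8.34% ± 2.20 on day 2 and 21.3% ± 2.92 on day 8. Its share was 56.7% ± 4.73 by day 10 and 74.4% ± 0.432 by day 18. Cebpb went from 20.6% ± 3.54 on day 2 to 4.33% ± 0.676 on day 18. Cebpa was below Cebpd in all 3 lanes up to day 8, with a ratio of 0.311 on day 8, and above it in all 3 lanes from day 10, with ratios of 1.52 on day 10 and 3.50 on day 18. Summed over the 3 genes, the level was 15.4 TPM at the first time point and 31.5 TPM at the last.

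**Figure D3:**
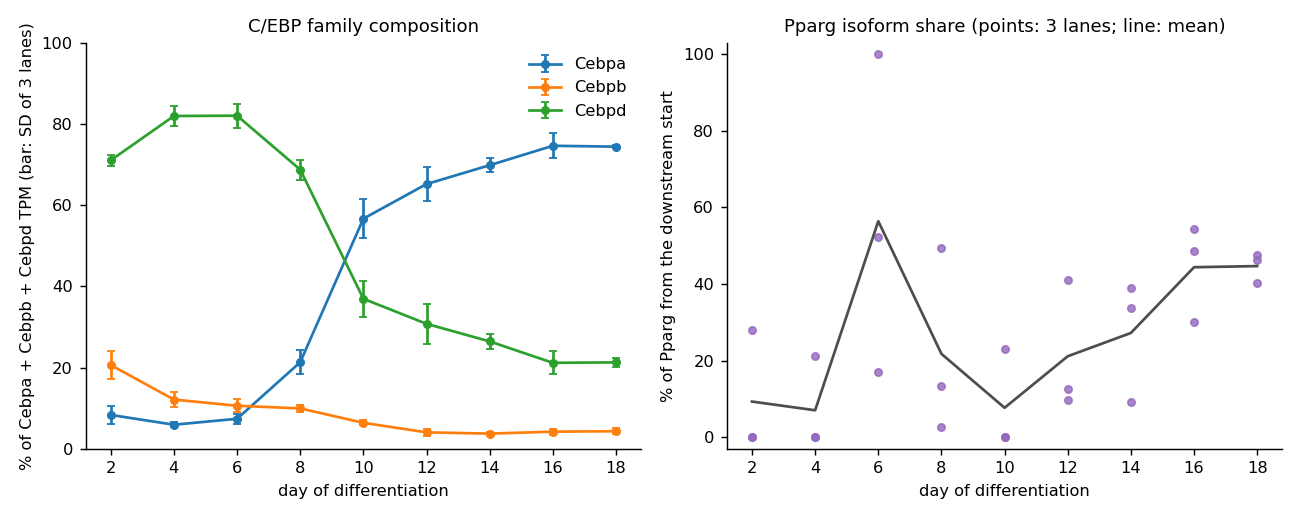
Left, share of each C/EBP gene in the summed TPM of Cebpa, Cebpb and Cebpd (percent, bars SD of 3 lanes) against day of differentiation. Right, share of Pparg assigned to its downstream start (percent, points 3 lanes, line their mean). Cebpa overtakes Cebpd between day 8 and day 10, and the Pparg lanes scatter from 0 to 100% up to day 10 but lie between 30.1 and 54.3% on days 16 and 18.

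Pparg, encoding the nuclear receptor PPARγ, dipped before it rose. Pparg stood at 5.15, 2.04, 1.88, 4.24 and 13.5 TPM on days 2, 4, 6, 8 and 10. The last 4 time points, days 12 to 18, had 27.3, 28.6, 31.6 and 35.1 TPM. The lanes of day 2 all lay above those of days 4 and 6, and the lanes of days 10 to 18 lay above all earlier ones. From 235 counts on day 2 the sum fell to 90 on day 4, a scaled ratio of 0.373 (interval 0.289 to 0.477, counting error only). The scaled counts then rose 18.7-fold from day 6 to day 18 (interval 15.0 to 23.6), and 6.02-fold from day 2 to day 18 (interval 5.24 to 6.94). Its log2 change along the line was 3.94 ± 0.76 (SE, edgeR adjusted p = 0.00154). Without day 2, the highest of the early libraries, the log2 change was 5.40. In mean TPM, Pparg stood above Cebpa on each of the 9 days. Their ratio was 3.96 (day 2), 1.02 (day 10) and 1.50 (day 18). Lanes of both genes overlapped on days 6, 8 and 10, so these levels did not differ beyond their lane spread. Cebpa was even higher than Pparg in lane 1 (13.3 against 13.0 TPM) and lane 3 (14.3 against 12.7 TPM) of day 10.

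Pparg lies at chr6:115311239-115440419 on the plus strand (NCBIM37), and the files quantified 2 transcripts that differ in their start. The longer one, Pparg-202 (1857 bases, a protein of 475 residues), starts at 115311239. Pparg-201 (1769 bases, 505 residues) starts 60845 bases downstream at 115372084 and encodes the longer protein, known as PPARγ2 and typical of fat cells. RSEM's gene length is an average of both weighted by their estimated abundance, so it gives the share of each. The share assigned to the downstream start averaged 9.33, 7.06, 21.8 and 7.70% on days 2, 4, 8 and 10 and 21.2, 27.2, 44.4 and 44.7% on days 12 to 18. On day 6 it averaged 56.4% with an SD of 41.6 over lanes, from 84 counts. Over the 15 lanes of days 2 to 10 it ranged from 0 to 100% with a median of 13.3%, and over the 6 lanes of days 16 and 18 from 30.1 to 54.3% with a median of 46.9%, so the ranges overlap. In TPM, the downstream form went from 0.504 ± 0.872 (SD of 3 lanes) on day 2 to 15.7 ± 1.92 on day 18, and the upstream form from 4.64 ± 0.823 to 19.4 ± 0.611. Both forms stood higher on day 18 than on day 2, and on day 6 their TPM of 0.931 ± 0.515 and 0.948 ± 0.855 could not be told apart. The isoforms share most of their sequence, so these shares are estimates from few distinguishing reads and were not tested.

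The 250 bases before the annotated starts of the members are shown for both Pparg starts, which differ in composition, and for Cebpa. They are also shown for Klf15, the member of latest onset, and for Cebpb, which was already at 50% of its highest level on day 2. The sequences are from RefSeq (GRCm38.p6), whose table held 14 windows for 8 of the 10 members (all but Cebpd and Ebf2). Matches on both strands were sought to TTGCNNAA (C/EBP), CCCNNGGGA (EBF), TCACCCCAC (sterol element) and CCACACCC (KLF), and capitals mark the matches, none of which overlap. Of all 32851 windows of this length, 9.56% hold the C/EBP letters, 5.60% the EBF letters, 0.496% the sterol element and 3.20% the KLF letters. The window before the downstream Pparg start, chr6:115421816-115422065 on the plus strand, holds C/EBP matches that begin at -215 and -16 from the start. By exact match to NCBIM37 it ends 1 base before Pparg-201. The window at chr6:115360894-115361143, which ends 78 bases before Pparg-202, holds none of the 4 motifs. Its GC content is 82.4%, against 40.8% in the downstream window. The Cebpb window, chr2:167688665-167688914 (plus strand), holds an EBF match beginning at -209. The Cebpa window, chr7:35119043-35119292, and the Klf15 window, chr6:90462326-90462575, both on the plus strand, hold none of these letters. Of the other windows, 1 before Zfp423 holds a C/EBP match at -131, so that 3 of 14 windows had any match. A match of letters is a description and not evidence of binding.
Pparg before the upstream start: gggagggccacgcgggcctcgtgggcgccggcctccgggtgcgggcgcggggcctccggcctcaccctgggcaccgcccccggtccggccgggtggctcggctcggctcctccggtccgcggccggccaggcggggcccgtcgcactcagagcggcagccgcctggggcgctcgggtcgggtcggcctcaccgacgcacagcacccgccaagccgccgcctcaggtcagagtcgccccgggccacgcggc
Pparg before the downstream start: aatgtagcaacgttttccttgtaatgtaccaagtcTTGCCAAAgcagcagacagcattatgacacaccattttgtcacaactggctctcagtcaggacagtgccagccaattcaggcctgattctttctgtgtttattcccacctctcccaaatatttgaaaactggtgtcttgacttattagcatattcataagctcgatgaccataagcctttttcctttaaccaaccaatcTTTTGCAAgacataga
Cebpa: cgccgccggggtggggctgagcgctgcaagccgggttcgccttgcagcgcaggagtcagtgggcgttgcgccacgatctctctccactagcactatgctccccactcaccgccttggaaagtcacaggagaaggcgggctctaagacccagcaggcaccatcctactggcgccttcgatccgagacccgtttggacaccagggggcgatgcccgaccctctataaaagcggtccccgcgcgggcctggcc
Cebpb: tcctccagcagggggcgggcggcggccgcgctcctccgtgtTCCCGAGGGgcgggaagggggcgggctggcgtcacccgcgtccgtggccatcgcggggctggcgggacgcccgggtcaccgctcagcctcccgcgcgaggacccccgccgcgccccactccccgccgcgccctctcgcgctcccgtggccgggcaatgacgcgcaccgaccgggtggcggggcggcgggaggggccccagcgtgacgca
Klf15: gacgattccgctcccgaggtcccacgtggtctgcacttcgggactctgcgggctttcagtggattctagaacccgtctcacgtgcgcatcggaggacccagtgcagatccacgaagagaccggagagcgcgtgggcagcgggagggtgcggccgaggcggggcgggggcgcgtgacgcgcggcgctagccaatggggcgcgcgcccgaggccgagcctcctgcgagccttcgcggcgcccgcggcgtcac

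Zfp423, encoding a zinc finger protein of preadipocyte commitment, rose from day 6 and did not turn back. On days 2, 4, 6, 8 and 10, Zfp423 measured 10.2, 10.1, 14.5, 24.1 and 38.2 TPM. Days 12, 14, 16 and 18 gave 56.5, 61.9, 64.0 and 69.1 TPM. On days 8, 10 and 12, every lane lay above all lanes of the sampled day before it, whereas day 4 overlapped with days 2 and 6, and days 14 to 18 overlapped with each other. Along the line the log2 change was 3.25 ± 0.45 (SE, edgeR adjusted p = 0.000236). The mean RSEM length of the gene, which has 7 transcripts in the files, ranged from 1759 to 2575 bases, so part of a TPM difference can reflect the assignment of reads to transcripts. In scaled counts the rise from day 2 to day 18 was 7.45-fold (interval 6.74 to 8.25, counting error only). The gene lies at chr8:90185709-90483494 on the minus strand (NCBIM37).

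Ebf1, encoding an early B cell factor that also acts in fat and bone precursors, had the highest mean level of the 10 members from day 8 on, with lanes that still overlapped those of Srebf1 on day 8. Levels of Ebf1 were 38.3, 34.1, 40.3, 52.4 and 113.8 TPM on days 2, 4, 6, 8 and 10. Levels of 159.8, 180.9, 171.3 and 174.0 TPM followed on days 12, 14, 16 and 18. Days 2 to 6 overlapped in their lanes, and the lanes of days 10 to 18 lay well above them. The step from day 8 to day 10 was 1.99-fold in scaled counts (interval 1.92 to 2.07, counting error only), and the fitted log2 change was 2.67 ± 0.35 (SE, edgeR adjusted p = 0.000172). The gene lies at chr11:44430819-44821593 on the plus strand (NCBIM37).

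Ebf2, a family member linked to brown and beige precursors, was the first of the rising members to reach 50% of its highest level. Its mean TPM was highest on day 12, and Ebf1, Klf15 and Ppargc1a also had their highest mean TPM before day 18. Ebf2 stood at 2.53, 3.05, 5.60, 10.6 and 12.1 TPM on days 2, 4, 6, 8 and 10. Thereafter it measured 17.1, 10.5, 13.4 and 13.8 TPM on days 12, 14, 16 and 18. The lanes of day 12 lay above those of all other days. In scaled counts the fall from day 12 to day 14 was to 0.790 (interval 0.738 to 0.846, counting error only), smaller than in TPM. The fitted log2 change was 2.40 ± 0.55 (SE, edgeR adjusted p = 0.00409). The gene lies at chr14:67852129-68048604 on the plus strand (NCBIM37). Ebf3, the third gene of the family in the list of partners, went from 8.84 TPM on day 2 to 31.9 on day 12 and 23.2 on day 18 (log2 change 1.60 ± 0.36, edgeR adjusted p = 0.0036).

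Klf15, a Krüppel-like factor of late fat cell differentiation, was at or near the limit of detection until day 8. Its summed counts were 5, 3, 0 and 6 on days 2, 4, 6 and 8. They were 24, 91, 136, 177 and 134 on days 10, 12, 14, 16 and 18. A count of 0 on day 6 allows up to 0.065 CPM (counts scaled by library size), the value of 3 counts in that library. Its level was at most 0.137 TPM on days 2 to 8 and then 0.772, 1.21, 2.32, 2.75 and 2.38 TPM on days 10 to 18, and no lane of days 2 to 8 reached any lane of days 10 to 18. From day 8 to day 18 the scaled counts rose 16.4-fold (interval 7.35 to 45.6, counting error only). In the fit, Klf15 changed by 6.71 ± 1.12 on the log2 scale (SE, edgeR adjusted p = 0.000668). The gene lies at chr6:90412570-90425232 on the plus strand (NCBIM37).

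Ppargc1a, encoding the coactivator PGC-1α, had the largest fitted change of the 10 members, within 1 SE of that of Klf15. On days 2, 4, 6, 8 and 10, Ppargc1a measured 0.198, 0.129, 1.13, 2.18 and 8.47 TPM. The last 4 time points, days 12 to 18, had 11.5, 14.4, 19.2 and 14.1 TPM. All lanes of days 10 to 18 lay above those of days 2 to 8. Summed counts were 7 on day 2 and 661 on day 18, and the step from day 8 to day 10 was 7.92-fold after scaling (interval 5.69 to 11.3, counting error only). Its log2 change along the line was 7.09 ± 1.23 (SE, edgeR adjusted p = 0.000804). Its mean RSEM length ranged from 1460 to 4122 bases, a ratio of 2.82, and its onset was day 12 in TPM but day 10 in CPM. The gene lies at chr5:51845488-51958964 on the minus strand (NCBIM37). The brown fat uncoupling protein gene Ucp1 had 0 counts in all 9 libraries, which allows up to 0.134 CPM in the smallest of them, and Cidea had 18 counts in all. Prdm16, a brown fat regulator, averaged 4.97 TPM with a log2 change of 0.15 ± 0.19 (edgeR adjusted p = 0.552).

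Srebf1, encoding the sterol regulatory factor SREBP1 of fatty acid synthesis, was the member with neither call. Levels of Srebf1 were 45.0, 51.1, 62.3, 51.1 and 44.3 TPM on days 2, 4, 6, 8 and 10. Days 12, 14, 16 and 18 gave 40.6, 42.5, 43.5 and 60.7 TPM. The highest level was 1.53 times the lowest, and the lanes of days 8 to 16 overlapped. Along the line the log2 change was -0.02 ± 0.20 (SE, edgeR adjusted p = 0.934), and the spline gave an adjusted p of 0.0717. In scaled counts day 18 stood 1.18-fold above day 2 (interval 1.10 to 1.27, counting error only). The gene lies at chr11:60012591-60036083 on the minus strand (NCBIM37) and has 14 transcripts in the files.

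**Figure D4:**
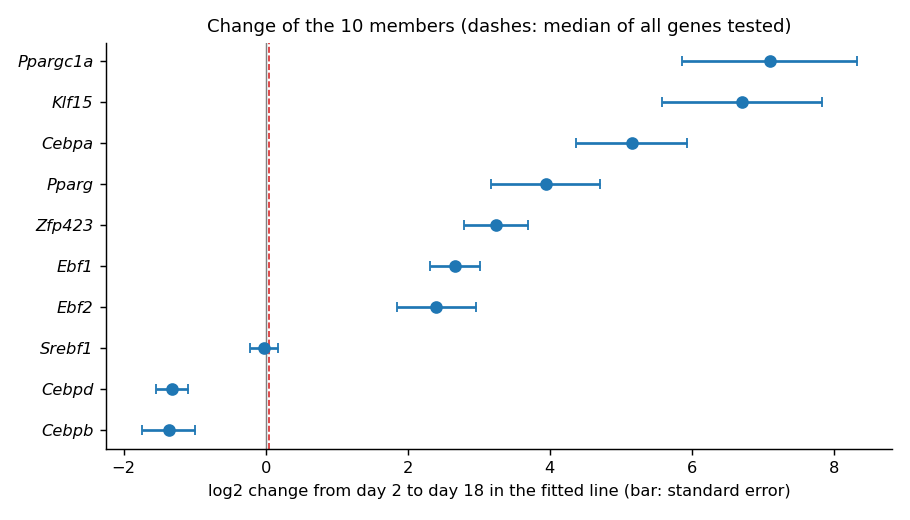
Fitted log2 change from day 2 to day 18 of each member (points, horizontal axis) with its standard error (bars), from the edgeR line through 9 libraries. The dashed line is the median of all genes tested, 0.05, and Srebf1 alone has a bar that includes it.

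The order of levels among the members changed over the series. On day 2 the order in TPM was Srebf1, Ebf1, Cebpd, Zfp423, Pparg, Cebpb, Ebf2, Cebpa, Ppargc1a and Klf15. The lanes of Cebpd and Zfp423, of Cebpb and Ebf2, and of Ppargc1a and Klf15 overlapped, so these neighbours did not differ beyond their lane spread. On day 18 the order was Ebf1, Zfp423, Srebf1, Pparg, Cebpa, Ppargc1a, Ebf2, Cebpd, Klf15 and Cebpb, with overlapping lanes for Ppargc1a and Ebf2 only. Cebpb thus went from the sixth place to the tenth and Cebpa from the eighth to the fifth.

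The 7 rising members are alike in rising along the line, which by itself raises their mutual correlation. Among their 21 pairs, Pearson's r of log2 CPM ranged from 0.741 (Pparg with Ebf2) to 0.996 (Cebpa with Ebf1), and 14 pairs had at least 0.9. Pparg correlated at 0.965 with Cebpa and at -0.965 with Cebpd. These values describe 9 libraries that all genes share, and they are given without a test. The 5 genes most like Pparg among 9886 with a mean of at least 5 TPM were Smoc1 (0.996), Limch1 (0.995), Igf2 (0.993), Npr3 (0.992) and Neo1 (0.989). Those most like Cebpa were Fzd4 (0.999), Myo6 (0.997), Adamts9 (0.997), Prlr (0.996) and Ldb2 (0.996). An r of at least 0.9 was reached by 7.27% of the genes with Pparg and by 14.1% with Cebpa.

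The levels of genes that these factors are known to activate in fat cells were read by the same rules. Of 20 target genes, 17 passed the filter, of which 14 rose and 3 fell, beside 28.3% rising and 26.1% falling among all genes tested. Their median log2 change was 6.60 against 0.05 in all genes tested. By the same 50% rule, 1 of the 14 rising targets had its onset on day 12, 4 on day 14 and 9 on day 16. Lpl, the earliest, shared its day with Pparg and Ppargc1a and preceded Klf15, and the 4 of day 14 shared theirs with Klf15. The difference in onset between members and targets was not tested. Lpl, the lipoprotein lipase gene, also had the highest mean level, 177.4 TPM. It went from 10.5 TPM on day 2 to 98.2 on day 10 and 505.0 on day 18 (log2 change 6.60 ± 0.75, edgeR adjusted p = 8.92e-05). Adipoq, encoding adiponectin, went from 0.204 TPM on day 2 to 1.13 on day 10 and 92.0 on day 18. Cfd, encoding adipsin, went from 0.108 to 35.1 TPM, and Pck1, of glycerol synthesis in fat, from 0 to 7.44 TPM, both between day 2 and day 18. These 3 had the largest fitted changes of the list.

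The 4 genes of the target list that serve fatty acid synthesis and are usually assigned to SREBP1 did not move together. Fasn, fatty acid synthase, fell from 42.4 TPM on day 2 to 26.1 on day 18 (log2 change -0.86 ± 0.15, edgeR adjusted p = 0.000872). Acly, ATP citrate lyase, fell from 75.8 to 53.8 TPM (log2 change -0.77 ± 0.20, edgeR adjusted p = 0.00755). Scd1, stearoyl-CoA desaturase, rose from 61.6 to 375.6 TPM (log2 change 2.23 ± 0.42, edgeR adjusted p = 0.00123). Acaca, acetyl-CoA carboxylase, fell in counts (log2 change -0.35 ± 0.13, edgeR adjusted p = 0.0357) while its TPM went from 16.2 to 77.5, so its direction depended on the unit.

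**Figure D5:**
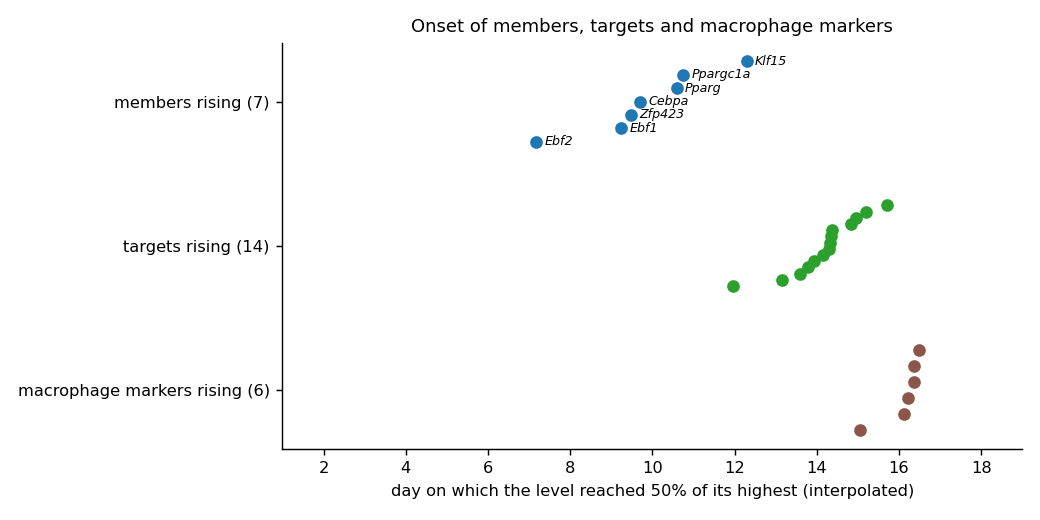
Interpolated day on which each gene reached 50% of its highest TPM (horizontal axis), for the 7 rising members, the 14 rising targets and the 6 rising monocyte and macrophage markers, 1 point per gene. Members span 7.17 to 12.3 days, and apart from Lpl all targets lie to the right of Klf15, the last member.

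Other positive regulators and partners of the programme numbered 24, of which 23 passed the filter. In this list 13 rose, 3 fell (Klf5, Klf6 and Srebf2) and 7 did neither, with a median log2 change of 0.75, beside 28.3% rising and 26.1% falling among all genes tested. Mlxipl, encoding the glucose-responsive factor ChREBP, went from 0 TPM on day 2 to 1.55 on day 18 and had the largest fitted change, 8.31 ± 0.84 (edgeR adjusted p = 5.12e-05). Nr1h3, encoding the oxysterol receptor LXRα, went from 0.684 to 6.14 TPM (log2 change 3.21 ± 0.40, edgeR adjusted p = 0.00013). Klf5 fell from 7.81 to 1.44 TPM (log2 change -2.46 ± 0.34, edgeR adjusted p = 0.000246). Klf6 had the highest mean level, 84.8 TPM, and fell from 136.1 to 69.4 TPM. Rxra, the heterodimer partner of PPARγ, was present throughout, at 26.2 TPM on day 2 and 46.9 on day 18 (log2 change 0.88 ± 0.13, edgeR adjusted p = 0.000327).

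Of 16 genes known to restrain fat cell formation, 6 rose, 4 fell and 6 did neither, with a median log2 change of 0.20, shares near the 28.3% and 26.1% of all genes tested. Dlk1, the preadipocyte factor that is lost in mature fat cells, rose from 35.4 TPM on day 2 to 128.9 on day 10 and 250.2 on day 12 and stood at 191.0 on day 18 (log2 change 3.74 ± 0.91, edgeR adjusted p = 0.00547). Its onset was day 10, the day of Cebpa, Ebf1 and Zfp423. Zfp521, an antagonist of Zfp423 and Ebf1, rose from 13.1 to 71.3 TPM with an onset on day 8 (log2 change 2.37 ± 0.35, edgeR adjusted p = 0.000335). Wnt10b, an inhibitory Wnt ligand, fell from 2.10 to 0.162 TPM (log2 change -4.88 ± 1.16, edgeR adjusted p = 0.00502). Ncor1, a corepressor with the highest mean level of the list, 147.8 TPM, passed in neither direction (log2 change 0.20 ± 0.11, edgeR adjusted p = 0.136).

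Transcription factors of the bone lineage moved in both directions over the same days. Runx2, the master regulator of osteoblasts, was at 46.4 TPM on day 2 and 62.0 on day 18 (log2 change 0.49 ± 0.16, edgeR adjusted p = 0.0232), and Dlx5 also rose. Msx2, which restrains differentiation, fell from 129.9 to 12.9 TPM (log2 change -3.99 ± 0.41, edgeR adjusted p = 5.71e-05), and Atf4 fell. Sp7 was at 32.3 TPM on day 2, 2.77 on day 8 and 10.6 on day 18, and passed in neither direction along the line.

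Markers of the sorted lineage and of other cell types also changed over the series, not all in the same direction. Of 10 osteoblast markers, 7 rose, beside 28.3% of all genes tested, and Alpl, Spp1 and Sp7 passed in neither direction. The 10 summed to 3001 to 5282 TPM on days 2 to 6 and to 7781 to 9566 on days 14 to 18. Most of the day 18 sum was type I collagen, with Col1a1 at 4263 and Col1a2 at 4114 TPM. All 5 adipocyte markers rose, from a sum of 1.33 to 2.39 TPM on days 2 to 6 to 191.8 to 441.7 TPM on days 14 to 18, and all 5 are also in the target list. Of 7 monocyte and macrophage markers, 6 rose, from a sum of 24.1 to 61.7 TPM to a sum of 522.4 to 2014 TPM over the same days, with none at 0 counts throughout. Lyz2, the largest of them, shares sequence with its neighbour Lyz1, so its level is uncertain. The onset of these 7 markers was day 16 for 1 and day 18 for 6, and their sum was 190.5 TPM on day 10, when Cebpa, Ebf1 and Zfp423 had passed 50%. Without Lyz2 the other 6 summed to 4.23, 18.1 and 158.4 TPM on days 2, 10 and 18. Of 4 endothelial markers 3 were tested, of which Tek (log2 change 2.97 ± 0.75, edgeR adjusted p = 0.00687) and Cdh5 (1.91 ± 0.51, edgeR adjusted p = 0.00887) rose and Kdr fell. Pecam1, the marker not tested, had 68 counts in all. The 4 summed to 3.24 to 3.95 TPM on days 2 to 6 and to at most 12.0 TPM on days 14 to 18. On day 10 they summed to 10.2 TPM, of which Tek gave 8.44. The onsets of Tek on day 10 and Cdh5 on day 12 were also those of members. Skeletal muscle markers summed to 5.58 to 13.8 TPM on days 2 to 6 and to at most 0.618 TPM on days 14 to 18. Acta1 gave most of the early sums and fell (log2 change -5.91 ± 0.76, edgeR adjusted p = 0.000157). Chondrocyte markers summed to 91.5 to 134.8 TPM over the 9 days. What part cells of other types had in the members' levels was not tested.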

How the data were processed

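Expression was measured by RNA sequencing in 27 profiles of 1 mouse strain. According to the submitters' processing notes, the authors aligned the reads with Bowtie 0.12.9 and quantified genes with RSEM 1.2.8 on the NCBIM37 transcriptome. The deposited expected counts are RSEM's estimated reads per gene and were not normalised. The TPM and FPKM values deposited by the authors are scaled per length and per profile. GENCODE (NCBIM37) gave symbols and coordinates for 37205 of 37991 gene identifiers.

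TPM was divided by each profile's 75th percentile and multiplied by the mean of these, a factor of 0.933 to 1.11 relative to that mean. Expected counts of the 3 lanes of a day were summed, rounded and fitted by edgeR 4.0.16 in R 4.3.3: upper-quartile factors, a minimum count of 10 in filterByExpr, and a line or a natural spline in day tested by quasi-likelihood with Benjamini-Hochberg adjustment over all genes. A log2 change is the fitted change from day 2 to day 18. Ratios between days carry exact 95% conditional binomial intervals, and floors are 3 counts. Both cover counting error only, as the complementary DNA was amplified. Correlations used log2(CPM + 0.5).

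Members and gene lists were chosen with earlier results of these data known, as was the 50% onset rule. In each list, the genes named were those with the largest fitted changes past the threshold and the highest mean level, and further genes were named for their role after their values were seen.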

Additional observations from a re-analysis of the deposited data

How the results depend on the processing

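Of 391 values recomputed under alternatives, 362 kept their direction and their side of the threshold or, for levels, counts and onset days, stayed near the reported value. The 7 rising members stayed at 7 under all 21 alternatives of the line, including TMM factors, DESeq2 1.42.0, other filters, thinning and each day left out. The count of falling members was 1 without day 2, where Cebpb was no longer past the threshold. Srebf1, which passed in neither direction, changed sign to a log2 change of 0.29 with the natural spline, 0.085 without day 6, 0.0084 without day 12 and 0.023 without day 16, and ranged from -0.083 to 0.053 with each replicate left out. Of 98 onset values under alternatives on sampled days, 18 gave another day than reported, and the onset ranged from day 8 to 16 for Ppargc1a, 10 to 14 for Klf15, 6 to 12 for Ebf2, 8 to 12 for Ebf1 and Zfp423, 10 to 12 for Cebpa and Pparg, and 2 to 4 for Cebpd and Srebf1. At a threshold of 5 TPM, 5 members were expressed on day 2 instead of 8. The spline called 10 members without replicate 1 or without replicate 2, against 9. The cause of these changes was not tested. The interpolated onset, which fell before the sampled day for the 7 rising members (9.70 days for Cebpa), was added after seeing the data.

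The replicate numbers coincide with lanes and do not pair samples (mean correlation of deviations 0.000375 for the same number, -0.000187 for different numbers). With the 27 profiles as separate samples, 10754 genes were called without and 10881 with the replicate block, against 8510 with summed libraries, and the members' calls stayed at 7 rising and 2 falling.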
